A study of Mus musculus with 6 samples.

Results

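The cytosolic ribosomal protein genes are the genes for the protein components of the ribosome outside mitochondria. They were taken as the protein-coding genes whose mouse symbol begins with Rpl, Rps or Rplp followed by a number, plus Rpsa, without the Rps6k kinases and without pseudogenes. This gave 83 of the 53801 genes in the tables. RNA was sequenced from MC3T3-E1, a mouse pre-osteoblast line derived from calvarial bone. Control cells carried a lentivirus with a scrambled non-silencing RNA, and Hdac4-knockdown cells carried the same vector with an shRNA against Hdac4, a class IIa histone deacetylase. In both groups the shRNA was driven by the U6 promoter of a lentiviral vector that also encodes ZsGreen1 and puromycin resistance. Both were infected in polybrene and selected with 5 μg/ml puromycin for 7 days in MEM-α with 10% FBS. The 3 RNA samples of a group are described as independent, but no source used here says that they came from separate infections, so p-values measure the spread between these samples, which may be technical. A difference between the groups cannot be told apart from a difference between the 2 stably infected populations.

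The small subunit of the ribosome reads the mRNA, and the large subunit joins amino acids into protein. Most ribosomal proteins are present in equal number in the finished particle, and their genes are among the most actively transcribed in a growing cell. Most of the mRNAs start with a run of pyrimidines, the 5′ terminal oligopyrimidine (TOP) tract, through which mTOR and Larp1 regulate their translation and stability. Because these mRNAs are short and abundant, mammalian genomes also hold many processed pseudogenes of them, intronless copies made by reverse transcription of the mature mRNA. A read that aligns equally well to a gene and its copy was counted on neither here.

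Between 29096544 and 31651826 reads were counted on genes per library. Hdac4 was at 40.7, 40.2 and 39.9 CPM (counts relative to the library size after TMM normalization) in Control and at 30.7, 28.8 and 29.5 CPM in Hdac4-knockdown (log2 fold change -0.44, adjusted p = 8.98e-07, edgeR's quasi-likelihood test with Benjamini-Hochberg adjustment). Of 14531 genes tested, 75.1% were called, which required both a change beyond 0.05 on the log2 scale and an adjusted p under 0.05. In bulk RNA, fewer cells of a type and less RNA per cell cannot be told apart. Of 10 pre-osteoblast markers, 6 were tested, with 5 higher and 1 lower in Hdac4-knockdown, and their summed level was 4769 to 4781 CPM in Control and 21429.5 to 22267 CPM in Hdac4-knockdown. Col1a1, the type I collagen gene, went from 338 to 11015 CPM, while Alpl, the alkaline phosphatase of mineralizing cells, had 0 to 3 counts in every library and Ibsp, bone sialoprotein, had 0 in each Control library. All 6 skeletal muscle markers, Myod1 among them (67.9 and 8.96 CPM), were lower in Hdac4-knockdown, with a summed level of 191 to 206 CPM in Control against 41.4 to 44.4 CPM. All 6 proliferation markers were lower too, and their summed level fell from 2352 to 2408 CPM to 933 to 982 CPM. The part of these differences in the results below was not tested.

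Of the 83 ribosomal protein genes, 80 had enough counts to be tested, and 57 of them were called lower and 13 higher in Hdac4-knockdown, whereas 10 were not called. Across all genes tested, 37.1% were called lower and 38.0% higher. The median log2 fold change was -0.24 over the ribosomal protein genes and 0.01 over all genes tested. The quartiles of the ribosomal protein genes were -0.34 and -0.07. Only 3 of the genes called lower went beyond 0.5 on the log2 scale, where 19.8% of all genes did, and none went beyond 1. Among those called higher, 6 went beyond 0.5 and 5 beyond 1, against 24.6% and 16.5% of all genes. The ribosomal protein genes were thus mostly lower by a small amount, under every scaling tried, with a few genes far above the rest.

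**Figure D1:**
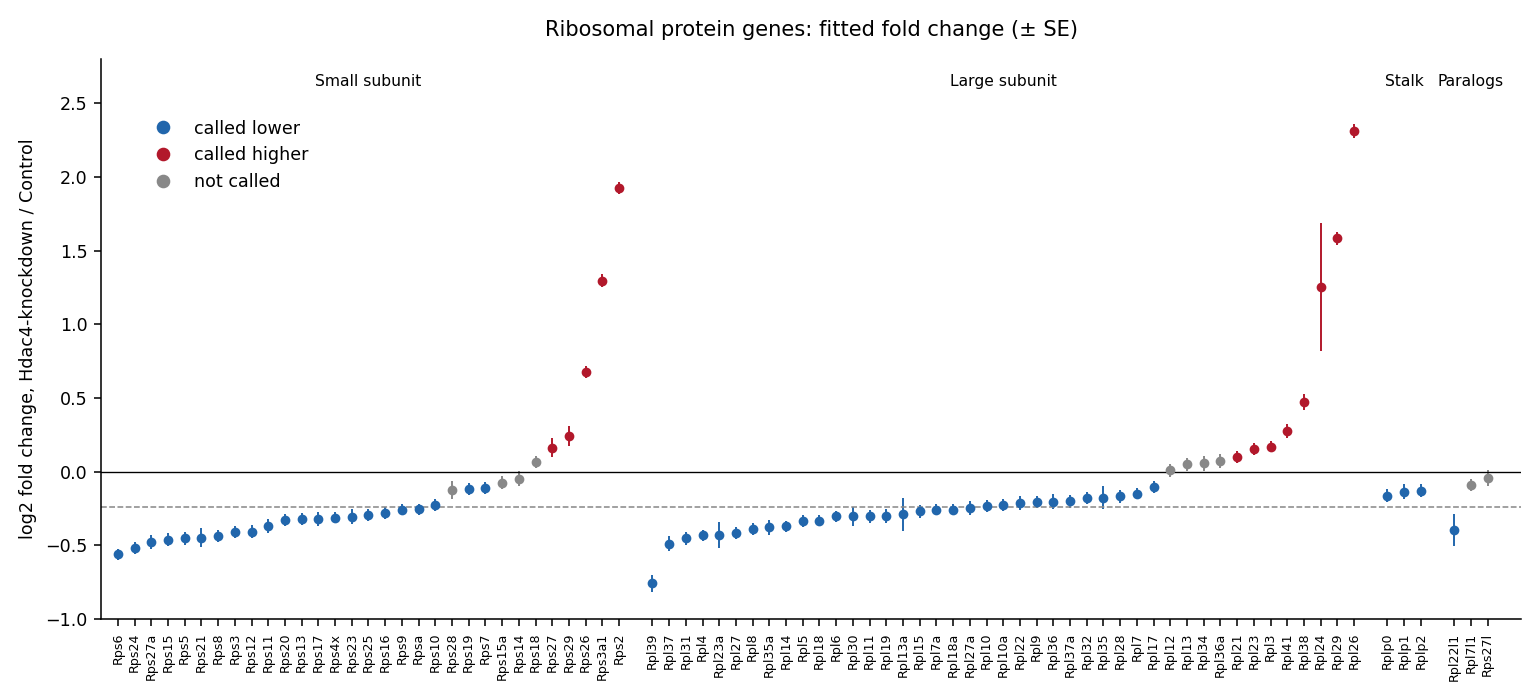
Log2 fold change of Hdac4-knockdown over Control for the 80 ribosomal protein genes tested, in order of fold change within the small subunit, the large subunit, the stalk and the paralogs. Points are fitted values, bars are standard errors (3 libraries per group), colours give the call, and the dashed line is the median of -0.24. Most genes lie in a band just below 0, and Rpl26, Rps2, Rpl29, Rps3a1 and the sparsely counted Rpl24 stand above 1.

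In 55 of the genes tested, all 3 Hdac4-knockdown libraries lay below all 3 Control libraries, in 11 they lay above, and in 14 the groups overlapped. Over all genes, the groups did not overlap in 38.0% with Hdac4-knockdown below and in 38.8% with it above. Within a group, the genes moved as a block. Hdac4-knockdown replicate 1 was the lowest Hdac4-knockdown library for 77 of the 80 genes and replicate 2 the highest for 68, while Control replicate 1 was the highest Control library for 59. Without Hdac4-knockdown replicate 1, 50 genes were called lower and 16 higher, against 35.4% and 36.5% of all genes. The median was then -0.18, so the direction did not rest on this library.

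**Figure D2:**
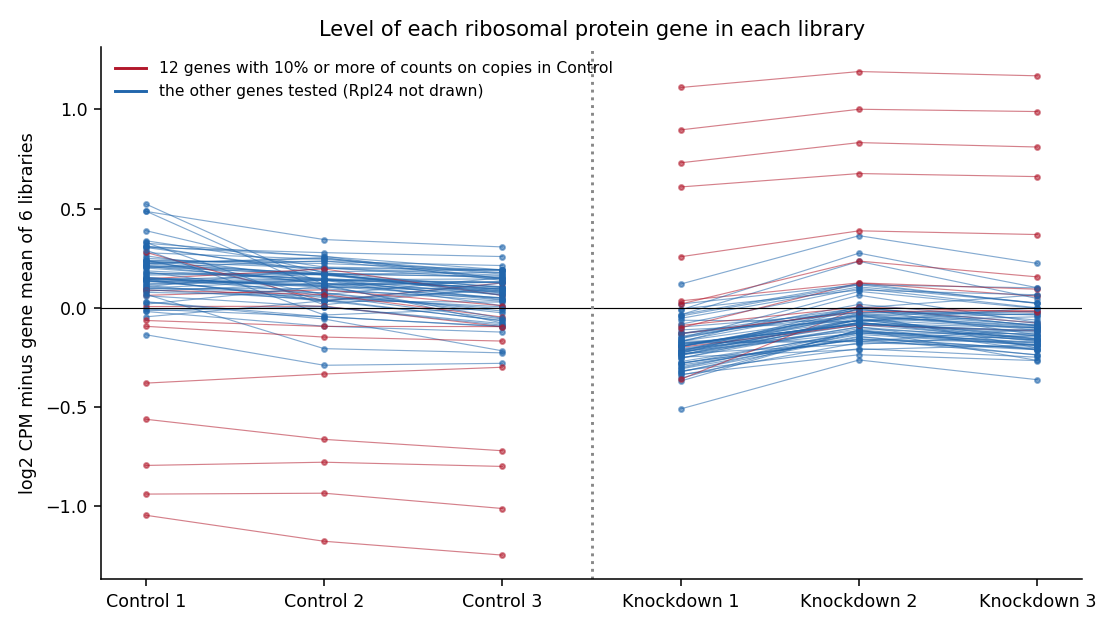
Log2 CPM of each ribosomal protein gene tested in each library, relative to that gene's mean over the 6 libraries (Rpl24 is not drawn). Each line joins the values of a gene within a group, and red marks the 12 genes for which 10% or more of the counts on gene and copies fell on copies in Control. Most of the blue lines shift down in Hdac4-knockdown, and the lowest of its 3 libraries is replicate 1 for most of them.

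The share of all gene counts that fell on ribosomal protein genes was 4.97%, 4.86% and 4.69% in the Control libraries and 4.39%, 4.80% and 4.65% in the Hdac4-knockdown libraries. These ranges overlapped, since Hdac4-knockdown replicate 2 lay above Control replicate 3. The difference was -0.227 percentage points (two-sided exact permutation test, p = 0.2, where 0.1 is the smallest p that 3 libraries against 3 can give). Without Hdac4-knockdown replicate 1 it was -0.115 percentage points.

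Among the small subunit proteins, 22 of 31 genes tested were called lower and 5 higher, with a median log2 fold change of -0.29. Rps6, whose protein is phosphorylated by the S6 kinases downstream of mTOR, was at 942, 925 and 912 CPM in Control and at 604, 647 and 634 CPM in Hdac4-knockdown. All its Hdac4-knockdown libraries lay well below the Control libraries, and it had the lowest fold change of the small subunit (log2 -0.56, SE 0.0378, adjusted p = 6.1e-11). Rps24, a small subunit gene mutated in some patients with Diamond-Blackfan anaemia, was at 924, 882 and 842 CPM in Control and 592, 639.5 and 621 CPM in Hdac4-knockdown (log2 fold change -0.52, adjusted p = 1.07e-09). Rps27a, which is made as a fusion of ubiquitin with a ribosomal protein, was at 592, 571 and 528 CPM and then at 377, 423 and 416 CPM (log2 fold change -0.48, adjusted p = 2.81e-08). In both genes the groups were fully separated. Rps15, a protein near the decoding site, fell from 961 ± 36.5 CPM (SD, n = 3) to 699 ± 40.1 CPM (SD, n = 3), a log2 fold change of -0.46. Rpsa, which is also known as a laminin receptor, fell from 1856 to 1556 CPM on average (log2 fold change -0.25). Rps19, the gene most often mutated in Diamond-Blackfan anaemia, was closer between groups. Its level was 335, 317 and 316 CPM in Control and 283, 304 and 305 CPM in Hdac4-knockdown (log2 fold change -0.12, adjusted p = 0.0185). Its call was lost without Control replicate 1 (-0.10, adjusted p = 0.0761) or Hdac4-knockdown replicate 1 (-0.07, adjusted p = 0.128), and under scaling by library size (adjusted p = 0.212).

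Among the large subunit proteins outside the stalk, 31 of 43 genes tested were called lower and 8 higher, with a median of -0.23. Rpl39, a small protein that lines the tunnel through which the new peptide leaves, was the ribosomal protein gene with the lowest fold change. It was at 210.0, 190.3 and 185 CPM in Control and at 105, 125 and 117 CPM in Hdac4-knockdown, so that every Hdac4-knockdown library lay far below every Control library (log2 fold change -0.76, SE 0.0575, adjusted p = 3.9e-10). Rpl37 went from 459.6, 419 and 415 CPM to 284, 336 and 302 CPM, again without overlap (log2 fold change -0.49, adjusted p = 1.01e-07). Rpl5 and Rpl11 bind 5S rRNA and, when free of ribosomes, the p53 regulator Mdm2. Rpl5 was at 984, 938 and 900.1 CPM in Control and at 724, 772 and 739 CPM in Hdac4-knockdown (log2 fold change -0.34, adjusted p = 3.61e-07). Rpl11 was at 567, 549 and 517 CPM and then at 416, 465 and 445 CPM (log2 fold change -0.30, adjusted p = 6.55e-06). The groups did not overlap for either gene.

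The stalk, made of Rplp0, Rplp1 and Rplp2, recruits translation factors to the large subunit. All 3 genes were called lower, and all were among the smaller changes, with a median of -0.13. Rplp0, often used as a reference gene in quantitative PCR, was at 3071, 3153 and 2974 CPM in Control and at 2580.4, 2899 and 2745 CPM in Hdac4-knockdown (log2 fold change -0.16, adjusted p = 0.0016). Rplp1 was at 901, 852 and 795 CPM and then at 727, 819 and 775 CPM, with overlap between the groups (log2 fold change -0.13, adjusted p = 0.0167). Rplp2 was at 451, 425 and 412 CPM and then at 371, 407 and 400.3 CPM, just without overlap (log2 fold change -0.13, adjusted p = 0.0139). The stalk calls were fragile. Without Control replicate 1 the adjusted p was 0.087 for Rplp1 and 0.0712 for Rplp2, without Hdac4-knockdown replicate 1 it was 0.129 and 0.108, and without Hdac4-knockdown replicate 3 it was 0.0583 for Rplp1. Upper quartile scaling ended all 3 calls, with adjusted p of 0.125 for Rplp0, 0.417 for Rplp1 and 0.449 for Rplp2.

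Levels were compared between genes per kilobase of merged exons. The highest in Control were Rplp0 with 1848, Rplp1 with 1702 and Rps15 with 1526 CPM per kb, and in Hdac4-knockdown they were at 1653, 1551 and 1109 CPM per kb. The lowest tested were Rpl24 with 0.229, Rpl13a with 4.73 and Rpl22l1 with 12.6 CPM per kb in Control. Per kilobase of the longest protein-coding transcript instead, Rps12, a small subunit protein, was first in Control with 2264 CPM per kb (652 by merged exons), just above Rplp0 with 2258, so the order at the top depended on the length used. Rpl24 and Rpl13a are core proteins of the ribosome. Of the exon bases of Rpl24, 47% lie in Gm28037, and 35.4% of those of Rpl13a lie in other genes, and reads that fall on overlapping genes of an unstranded library are counted on neither. Rpl35 and Rpl23a, with more of their exon bases shared (66.2% and 62.3%), were at 36.7 and 54.4 CPM per kb of merged exons in Control, and the part of the overlap in these levels was not tested. In 11 of the 80 genes tested more than 20% of the exon bases were shared with another gene, and 10 of these 11 were called lower. Of all 80, 57 were called lower, and of all genes tested 37.1%. The values of these genes are less certain than those of the others.

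Several ribosomal protein genes have a paralog, and some of these paralogs can take the place of the parent in some tissues. Of the 6 paralogs in the group, Rpl3l, Rpl10l and Rpl39l had 0 to 4 counts per library and were not tested. Rpl10l had 0 counts in all 6, and a count of 0 allows up to 3 counts in a library, for counting error only. Rpl22l1 was at 31.2, 23.6 and 20.6 CPM in Control and at 18.2, 20.3 and 18.7 CPM in Hdac4-knockdown, which did not overlap (log2 fold change -0.40, adjusted p = 0.00278). Without Control replicate 1, the highest library, the log2 fold change of Rpl22l1 was -0.22 (adjusted p = 0.0328). Its parent Rpl22 also fell, and the log2 ratio of paralog to parent differed by -0.16 (two-sided exact permutation test, p = 0.4) and by -0.01 without Control replicate 1 or -0.28 without Control replicate 3. Rpl7l1 was at 179, 176 and 169 CPM and then at 162, 161 and 169 CPM (log2 fold change -0.09, adjusted p = 0.0638), and its log2 ratio to Rpl7 was 0.06 higher in Hdac4-knockdown (p = 0.1, exact permutation test). Rps27l, a p53-responsive paralog of Rps27, was at 110.2, 106 and 98.8 CPM and then at 94.5, 103 and 108 CPM, with overlap (log2 fold change -0.04, adjusted p = 0.473). Its log2 ratio to Rps27 was 0.21 lower in Hdac4-knockdown, with no overlap between the groups (difference -0.21, p = 0.1, exact permutation test). None of these 3 ratios could pass a threshold of 0.05 in a design whose smallest p is 0.1.

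The genes called higher were of 2 kinds. In 6 of the 13, counts on copies were under 10% of the summed counts in Control, or, for Rpl24, the gene had too few counts to be sorted by this share. Rpl38, a protein implicated in the translation of Hox mRNAs, was the highest of these with 100 or more counts, at 149.7, 135 and 135 CPM in Control and 179, 212 and 192 CPM in Hdac4-knockdown (log2 fold change 0.47, adjusted p = 2.92e-07). The groups did not overlap. Rpl23, Rps27, Rps29 and Rpl21 had log2 fold changes of 0.16, 0.16, 0.24 and 0.10, and for Rps27 and Rps29 the groups overlapped. The Rps27 call was lost without Control replicate 2 or 3 (adjusted p = 0.0518 and 0.237) or without Hdac4-knockdown replicate 2 (0.139). The Rpl21 call was lost without Control replicate 2 or 3 (0.0977 and 0.25), without Hdac4-knockdown replicate 2 or 3 (0.0606 and 0.084) and under DESeq2 (0.0593), which also ended that of Rps29 (0.131). Rpl24, the sixth, had a level of 0.236 CPM in Control and 0.571 CPM in Hdac4-knockdown, a few counts per library. In Control this was below its copy Gm12254 (1.05 CPM), and with copies added Rpl24 was not called (log2 fold change 0.15, adjusted p = 0.546). The call of Rpl24 alone was also lost under DESeq2 (adjusted p = 0.0924), without Control replicate 2 (0.0534) and without Hdac4-knockdown replicate 1 (0.0775).

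The other 7 genes called higher were among the 12 for which 10% or more of the summed counts on gene and copies fell on copies in Control. They included the 5 largest rises among well-counted genes. Rpl26, a large subunit protein that also binds the p53 mRNA, was at 67.9, 62.0 and 59.0 CPM in Control and at 303, 320.1 and 315 CPM in Hdac4-knockdown (log2 fold change 2.31, SE 0.0504, adjusted p = 8.42e-19). Rps2, a protein at the entry of the mRNA channel, was at 534, 536 and 508 CPM and then at 1908, 2051 and 2034 CPM (log2 fold change 1.93, SE 0.0402, adjusted p = 4.11e-19). In both genes the lowest Hdac4-knockdown library was several times the highest Control library. Rpl29, a large subunit protein also described at the cell surface, was at 115, 116 and 115 CPM and then at 332, 356 and 350.5 CPM (log2 fold change 1.58, adjusted p = 1.74e-17). Rps3a1 was at 397, 369.7 and 355 CPM and then at 893, 936 and 926 CPM (log2 fold change 1.30, adjusted p = 6.08e-16). Rps26 was at 439.9, 454 and 465 CPM and then at 684, 749 and 739 CPM (log2 fold change 0.68, adjusted p = 1.29e-11). None of these genes overlapped between groups.

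The copies of these same genes went the other way. Rps2-ps10, a processed pseudogene of Rps2 on chromosome 18, was at 1609.6, 1431 and 1402 CPM in Control and at 276, 288 and 295 CPM in Hdac4-knockdown (log2 fold change -2.37, SE 0.0492, adjusted p = 3.76e-19). In Control its counts were thus above those of Rps2 itself. Gm15772, a copy of Rpl26 on chromosome 5, was at 318, 312 and 302 CPM and then at 56.8, 63.6 and 58.4 CPM (log2 fold change -2.38). Rps3a3, on chromosome 13, was at 218, 219 and 221 CPM and then at 44.1, 44.9 and 47.9 CPM (log2 fold change -2.27), and Rps26-ps1, on chromosome 8, was at 198, 196 and 201 CPM and then at 43.1, 42.1 and 42.4 CPM (log2 fold change -2.22). Expressed as a share of the summed counts on gene and copies, the copies fell from 83.2% to 16.2% for Rpl26, from 73.9% to 12.8% for Rps2, from 44.8% to 6.7% for Rps3a1, from 39.1% to 5.71% for Rpl29 and from 30.6% to 5.62% for Rps26.

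**Figure D3:**
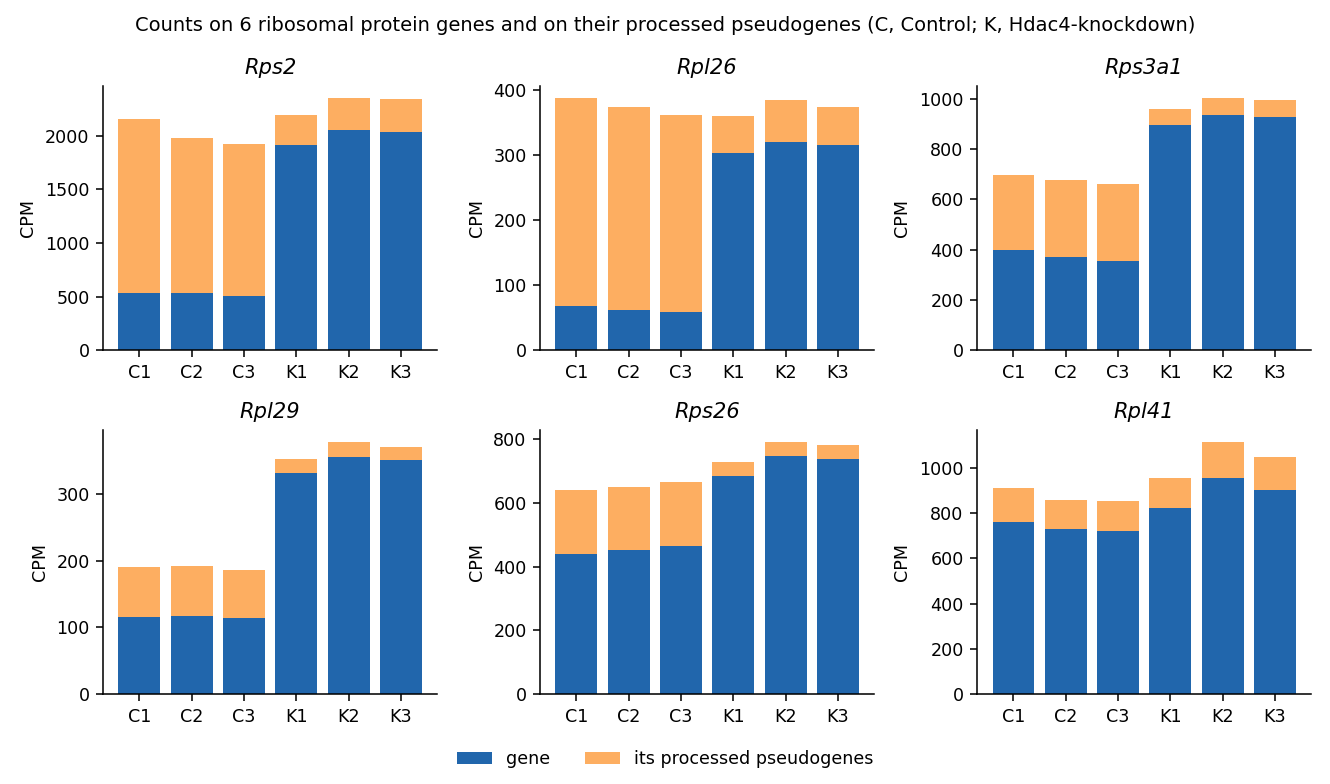
CPM in each library on 6 ribosomal protein genes (blue) and on the processed pseudogenes tied to them (orange), stacked. In 5 of them the orange part is large in the 3 Control libraries (C1 to C3) and small in the 3 Hdac4-knockdown libraries (K1 to K3), and in Rpl41 it takes 15.7% and 14.1% of the counts in the 2 groups.

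In all, 37 pseudogenes tied to ribosomal protein genes had 100 or more counts per library on average, and they fell into 2 sets. In 15 of them, tied to 11 genes and lying on 12 chromosomes, Hdac4-knockdown had 17.2% to 26.9% of the Control level, with log2 fold changes between -2.54 and -1.89. This set was taken as log2 fold changes below -1.5, so it could hold no smaller falls. Some of its copies reached 100 counts on average through Control, such as Rps18-ps3 (256 to 325 counts there, 47 to 55 in Hdac4-knockdown). Control levels of the 15 ran from 9.65 to 1481 CPM, so the set held copies more than 100 times apart in level. The other 22, tied to 22 other genes, had log2 fold changes between -0.70 and 0.37, and none of these 37 lay between the sets. Copies with fewer counts did lie there, such as Gm2830 (-1.59) and Gm8292 (-1.25). So did Gm4366 (-1.70), a well-counted copy of Eef1g, which is not a ribosomal protein gene. In the first set each copy differed from the coding sequence of its gene by 2 to 8 bases (identity 98.7% to 99.8%). In the second set 10 of the 22 had no mismatch, and the rest had up to 12. The genes with a copy in the first set are Rps2, Rpl26, Rps3a1, Rps26, Rpl3, Rps7, Rpl29, Rpl15, Rpl34, Rps15a and Rps18. Of all 158 tied copies that could be tested, 43 were called lower, or 27.2%, and 10 higher. Of 416 processed pseudogenes tied to no ribosomal protein gene, 37.3% were called lower, with a median log2 fold change of -0.36 against 0.01 over all genes tested. Reads aligned to several places made up 4.61% to 4.77% of the Control libraries and 3.88% to 4.15% of the Hdac4-knockdown libraries. What made the copies differ between the groups was not tested, and whether both groups came from the same cell stock or were aligned with the same settings cannot be told apart from the knockdown here.

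**Figure D4:**
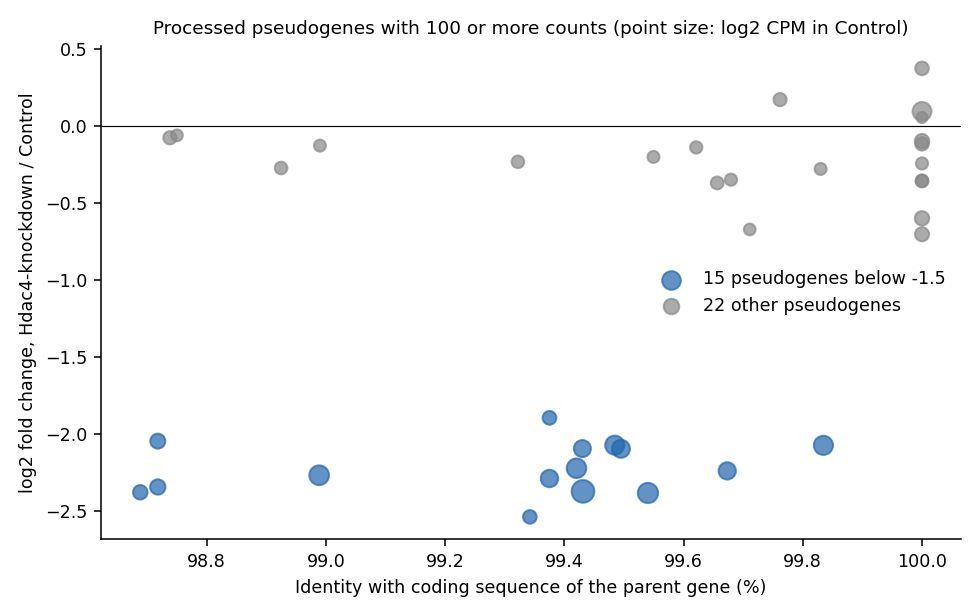
Log2 fold change of the 37 well-counted processed pseudogenes against the percent identity of their alignment with the coding sequence of their gene, with point size by level in Control. The 15 blue points lie between -2.54 and -1.89 at identities of 98.7% to 99.8%, and the 22 grey points lie between -0.70 and 0.37.

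How little separates a gene from its copy is shown by coding stretches of 60 bases, with the bases that differ between the 2 in capitals (gene sequences from GENCODE M21 transcripts, copies in GRCm38). They are shown because a read that covers only lower-case bases matches both equally well. For Rpl26, the stretch covers coding bases 147 to 206, and that of Gm15772 lies on the plus strand at chr5:3236577-3236636.
Rpl26: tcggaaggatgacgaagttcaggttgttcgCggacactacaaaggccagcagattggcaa
Gm15772: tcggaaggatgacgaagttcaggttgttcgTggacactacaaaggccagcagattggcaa
For Rps26, the stretch covers coding bases 1 to 60, and that of Rps26-ps1 lies on the minus strand at chr8:107439503-107439562.
Rps26: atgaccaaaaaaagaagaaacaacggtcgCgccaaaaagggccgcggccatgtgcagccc
Rps26-ps1: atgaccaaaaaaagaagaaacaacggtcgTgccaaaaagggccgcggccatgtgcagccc
For Rps3a1, the stretch covers coding bases 208 to 267, and that of Rps3a3 lies on the plus strand at chr13:108670810-108670869.
Rps3a1: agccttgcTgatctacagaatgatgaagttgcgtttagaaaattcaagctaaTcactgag
Rps3a3: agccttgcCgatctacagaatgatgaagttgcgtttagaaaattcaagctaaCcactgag
Rpl41, which encodes the shortest protein of the ribosome, and its copy Gm10736 on chromosome 13 have the same coding sequence of 75 bases, of which the first 60 are
Rpl41: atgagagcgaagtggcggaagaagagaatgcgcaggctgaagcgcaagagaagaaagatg
and Gm10736 was at 151, 125 and 129.6 CPM in Control and at 132, 158 and 143 CPM in Hdac4-knockdown, with overlap between the groups (log2 fold change 0.09, adjusted p = 0.205).

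When the counts on tied copies were added to their gene and the test was repeated over 14373 genes, 58 ribosomal protein genes were called lower and 10 higher, against 37.3% and 38.3% of all genes, and the median was -0.25. Rpl26 with its copies was at 387, 374 and 361 CPM in Control and at 359, 387 and 373 CPM in Hdac4-knockdown, so that the groups overlapped and the log2 fold change was 0.00 (adjusted p = 0.92). Rps2 with its copies went from 2016 to 2291 CPM (log2 fold change 0.18, adjusted p = 0.000912) and Rps26 from 653 to 767 CPM (0.23, adjusted p = 3.53e-05). Rps3a1 and Rpl29 were still well above Control, with log2 fold changes of 0.54 (adjusted p = 8.46e-11) and 0.95 (adjusted p = 2.42e-14). For Rpl29, the summed level was 190.4, 192 and 186 CPM in Control and 351, 379.8 and 369.8 CPM in Hdac4-knockdown.

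The same step moved genes with smaller shares on copies downwards. Rpl3, a protein that reaches into the peptidyl transferase centre, went from a log2 fold change of 0.17 to -0.03 (adjusted p = 0.44), with copies at 16.8% of the summed counts in Control and 4.14% in Hdac4-knockdown. Rps7, which also binds Mdm2, went from -0.11 to -0.30, and Rpl15 from -0.27 to -0.39. The call of Rps7 alone was lost without Hdac4-knockdown replicate 1 (-0.06, adjusted p = 0.152) or Control replicate 2 (0.0687), under scaling by library size (0.248) or upper quartile (0.682), and with at least 10 counts in every library (0.122). Rps15a went from -0.07, not called, to -0.21 (adjusted p = 0.00023), and Rpl34 from 0.06 to -0.11 (adjusted p = 0.0583). In all, 4 calls changed, those of Rpl26, Rpl3, Rps15a and Rpl24. Of the 12 genes with many counts on copies, Rpl13a and Rpl41 had copies whose share was alike in both groups (17.3% and 17.5%, and 15.7% and 14.1%), and their fold changes stayed near their first values. Without these 12 genes, 54 of 68 were called lower and 6 higher, and the median was -0.26. Rpl24, with too few counts to be among the 12, was 1 of the 6.

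**Figure D5:**
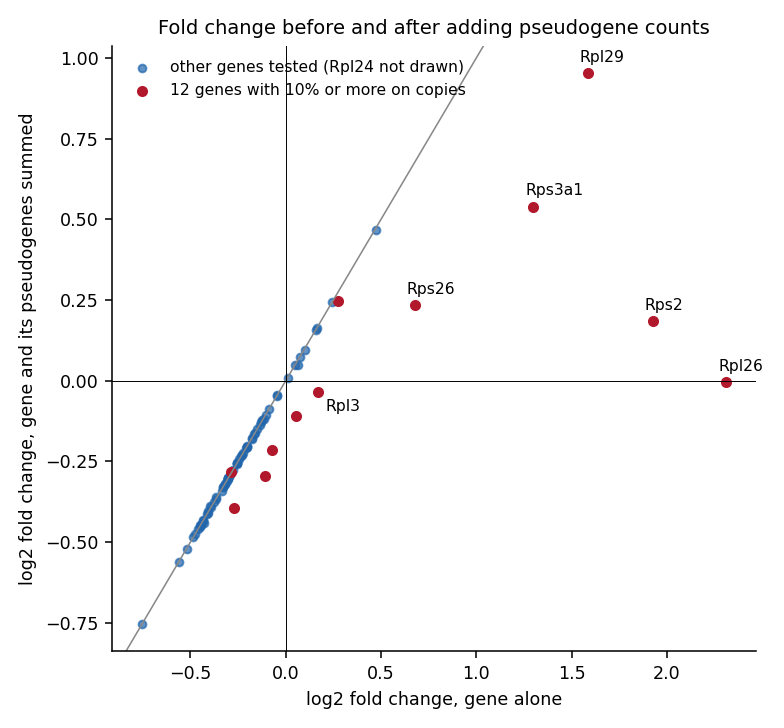
Log2 fold change of each ribosomal protein gene tested alone (horizontal axis) and of the gene summed with its copies (vertical axis). A diagonal line shows where both are equal, and Rpl24 is not drawn. Rpl26 drops from 2.31 to 0.00 and Rps2 from 1.93 to 0.18, whereas most other genes stay on the diagonal.

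Sums over the group depended on the copies as well. The copies took 0.343%, 0.314% and 0.313% of all gene counts in Control and 0.0977%, 0.104% and 0.103% in Hdac4-knockdown. With them included, the share of gene counts on ribosomal protein genes was 5.32%, 5.17% and 5.01% in Control and 4.49%, 4.91% and 4.75% in Hdac4-knockdown, without overlap (difference -0.449 percentage points, two-sided exact permutation test, p = 0.1). The log2 ratio of small to large subunit counts was -0.581 ± 0.00528 (SD, n = 3) in Control and -0.517 ± 0.00439 (SD, n = 3) in Hdac4-knockdown, with all Hdac4-knockdown libraries above (p = 0.1, exact permutation test). With copies included it was -0.472 and -0.503, with all Hdac4-knockdown libraries below (p = 0.1, exact permutation test), so the direction of this ratio turned with the way the copies were counted.

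The TOP tract was looked for at the annotated starts of RefSeq genes (GRCm38.p6), as a C at the start followed by at least 4 bases that are each C or T, on the gene's own strand. An entry was present for 63 of the 83 genes. The run stood at the start in 13 of them, or 20.6%, and in 3.01% of all 27025 genes with an entry. It was present in 9 of 42 genes called lower (21.4%) and 4 of 21 others (19.0%). Within 10 bases of the start it was present in 39 of the 63 (61.9%) and in 34.4% of all genes. The match is a description of these letters at the annotated start and does not locate the start used in these cells. Shown are 30 bases from 10 before the start for the 2 genes with the lowest and the 2 with the highest fold change among those with the run, which is in capitals. Rps6 lies at chr4:86857348-86857377 on the minus strand, Rps21 at chr2:180257369-180257398 on the plus strand, Rpl38 at chr11:114668570-114668599 on the plus strand and Rps27 at chr3:90213629-90213658 on the minus strand.
Rps6: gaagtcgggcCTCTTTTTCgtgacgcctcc
Rps21: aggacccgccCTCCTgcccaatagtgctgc
Rpl38: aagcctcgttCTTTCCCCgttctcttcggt
Rps27: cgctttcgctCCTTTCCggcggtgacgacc
The first 2 genes had log2 fold changes of -0.56 and -0.45, and the last 2 of 0.47 and 0.16.

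The rule by symbol leaves out some further genes for ribosomal proteins. Rack1, a scaffold protein on the head of the small subunit, was at 1568, 1586 and 1491 CPM in Control and at 921, 1033 and 997 CPM in Hdac4-knockdown, a larger fall than that of all tested members but Rpl39 (log2 fold change -0.65, adjusted p = 3.6e-11). Fau, which encodes Rps30 as a ubiquitin-like fusion, was not called (0.07, adjusted p = 0.177). It was called higher under scaling by library size (0.12, adjusted p = 0.0156) or upper quartile (0.16, adjusted p = 0.00365). The same held with at least 10 counts in every library (0.10, adjusted p = 0.0388) and without Hdac4-knockdown replicate 1 (0.13, adjusted p = 0.00776). Rpl36al was called higher at a level of 0.695 CPM in Control (log2 fold change 0.85, adjusted p = 0.0174), with 30.5% to 49.1% of the summed counts on copies, and is uncertain for that reason. It was not called under DESeq2 (adjusted p = 0.0782), without Control replicate 3 (0.0635) or without Hdac4-knockdown replicate 3 (0.0935).

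Translation factors and other genes listed as having TOP mRNAs, Vim and Hnrnpa1 among the others, mostly moved in the same direction as the ribosomal proteins. The tract was not looked for in these genes. Of 20 such genes, 17 were called lower and 1 higher, with a median of -0.38, against 37.1% lower and 38.0% higher among all genes tested. Eef1a1, which brings aminoacyl-tRNA to the ribosome, fell from 8308 to 5722 CPM (log2 fold change -0.54), Eef2, which moves the ribosome along the mRNA, from 4717 to 3364 CPM (-0.49), Pabpc1, which binds the poly-A tail, from 2263 to 1716 CPM (-0.40), and the nucleolar chaperone Npm1 from 1254 to 754 CPM (-0.73). The gene called higher was Eef1g, a subunit of the elongation factor that recycles Eef1a1. It was at 540.0, 538 and 529.9 CPM in Control and at 1195, 1233 and 1221 CPM in Hdac4-knockdown (log2 fold change 1.18), and its copies, Gm4366 foremost, took 13.7% to 15.3% of the summed counts in Control and 2.14% to 2.38% in Hdac4-knockdown. Summed with its copies, Eef1g still rose, from 625 CPM in Control to 1245 CPM in Hdac4-knockdown on average. Of 33 initiation factors, 21 were called lower and 5 higher, with a median of -0.26.

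Genes that make ribosomes showed no such common direction. Of 67 genes for rRNA processing and ribosome assembly, 23 were called higher and 23 lower (median -0.03), with Wdr36 lowest at -1.75 and Noc3l highest at 0.91. These shares are near those over all genes tested, 38.0% higher and 37.1% lower. Ncl and Fbl, the nucleolar proteins nucleolin and fibrillarin, were called lower (-0.33 and -0.34). Of 14 genes of RNA polymerase I and its factors, 6 were higher and 5 lower (median 0.08), and of 76 mitochondrial ribosomal protein genes 21 were higher and 30 lower (median -0.10). Among 22 genes of TOP control and growth signalling, 7 were higher and 10 lower (median -0.0044, range -1.69 to 1.24). Larp1, which binds the TOP tract and the cap, was at 386, 399 and 406 CPM in Control and at 259, 262 and 257 CPM in Hdac4-knockdown (log2 fold change -0.61, adjusted p = 1.76e-11), and Mtor was at 73.6, 79.8 and 79.2 CPM and then at 48.3, 54.1 and 46.6 CPM (-0.64, adjusted p = 5.26e-09). Neither gene overlapped between groups. Myc, a transcriptional activator of ribosomal protein genes, was slightly higher, from 101 to 111 CPM (0.14, adjusted p = 0.00754), and its call was lost without Control replicate 2 (adjusted p = 0.0512). Of 9 Myc family genes tested, 4 were higher and 5 lower.

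Among 12 ribosomal proteins of the 5S particle or known to bind Mdm2, 7 were called lower and 3 higher (median -0.20). Mdm2 itself was at 181, 175 and 188 CPM in Control and at 341, 304 and 328 CPM in Hdac4-knockdown (log2 fold change 0.84, adjusted p = 2.21e-12), Cdkn1a, a target of p53, was higher (1.09), and Trp53, the gene of p53, was lower (-0.35). Of 19 genes mutated in Diamond-Blackfan anaemia, 13 were lower and 4 higher (median -0.22). At the rim of the peptide exit tunnel 7 of 9 were lower and 2 higher, and at the mRNA channel and decoding head 6 of 7 were lower, with Rps2 higher. The 2 higher at the rim, Rpl26 and Rpl24, were not called with copies added (adjusted p = 0.92 and 0.546). Rpl26 was also among those higher in the Mdm2 and Diamond-Blackfan lists, as was Rps27, whose call was lost without single libraries. For comparison, 57 of all 80 ribosomal protein genes tested were lower and 13 higher. Over all genes tested, 37.1% were lower and 38.0% higher. Of 12 tested host genes of small nucleolar RNAs, whose spliced RNAs often also start with a TOP tract, 10 were higher and 2 lower (median 0.65). Gas5 was at 57.1, 52.0 and 50.3 CPM in Control and at 133, 153 and 140.3 CPM in Hdac4-knockdown (log2 fold change 1.42), and Snhg1 went from 20.8 to 70.6 CPM (1.76), both opposite to the ribosomal protein genes.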

How the data were processed

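Counts per Ensembl gene were deposited by the authors for each library, without normalization. Submitters' notes name STAR 2.7.3a, HTSeq 0.12.4 and mm10. Libraries were poly-A selected and unstranded. Summary lines that name no gene (14.3% to 15.0% of each table) were left out. Symbols, exons and copies came from GENCODE M21 (GRCm38). A copy is a row annotated as a pseudogene, nearly all processed, or whose symbol ends in -ps (a few of these are annotated as protein-coding), tied to the gene with which its transcript shares most 31-base words (at least 20). Alignments used Biopython 1.88.

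The test was the quasi-likelihood F test of edgeR 4.0.16 (R 4.3.3, TMM scaling, filterByExpr), adjusted by Benjamini-Hochberg over all genes tested, with DESeq2 1.42.0 and limma-voom 3.58.1 as alternatives, figures with matplotlib 3.10.9. In simulated counts, edgeR recovered 79% of 81 planted log2 changes of 0.3 in genes with 100 or more counts, and 6 of 163 calls were false over 14397 genes. The simulation changed 200 genes, whereas 75.1% of genes tested were called in the data, so this recovery may not hold for them.

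The members and lists were chosen with earlier results of these data known. Named genes were the 5 highest and 5 lowest members with 100 counts, the 3 highest and lowest per kilobase, paralogs and parents, members named by role, and set genes of other lists with their extremes. Members with many counts on copies, Rpl38, Rpl23, Rps29, Rpl21 and Gas5 were added after their values were seen, as was adding copies to genes. Replicate numbers did not pair the samples (correlations of deviations -0.011, 0.027 and 0.017). A result for one item is not reported here.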

Additional observations from a re-analysis of the deposited data

How the results depend on the processing

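Fold changes near 0.1 on the log2 scale are near what 3 libraries per group resolve, and calls near the threshold moved with single libraries. Larger ones lay further from 0 relative to their error, such as Rpl5 at -0.34 (SE 0.0406). Scaling by DESeq2 size factors, TMM without the ribosomal protein genes, library size or upper quartile gave 46 to 57 genes lower and 13 to 17 higher. Over all genes these scalings gave 31.7% to 37.4% lower and 37.8% to 43.5% higher. The median was -0.15 under upper quartile scaling, which raised the median of all genes to 0.10. DESeq2 gave 56 lower and 10 higher (25.1% and 26.6% of all genes). Limma-voom gave 56 and 13 (37.2% and 37.9%), and the replicate block 58 and 13 (37.4% and 38.0%, median of the members -0.24). With no filter beyond 1 count, 60 were lower and 12 higher (20.7% and 22.3% of all genes), and with at least 10 counts in every library 50 and 14 (37.4% and 37.7%). A fold change threshold of 0.5 left 3 lower and 6 higher, and a threshold of 1 left 0 and 5, by construction. Of the 16 genes with under 20% of their 50-base words shared with transcripts of other genes, 10 were lower and 1 higher. Without the 12 genes with many counts on copies, 6 were higher, Rpl24 among them. Leaving out each library in turn gave 50 to 60 lower, 10 to 16 higher and medians of -0.27 to -0.18. Over all genes these fits gave 34.6% to 36.4% lower and 35.7% to 37.2% higher.

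Adding copies moved the difference in the share of counts to -0.449 percentage points and turned the sign of Rpl26 (-0.0049), Rpl3 (-0.035) and Rpl34 (-0.11) and of the difference in the log2 subunit ratio (-0.031, against 0.0638, and 0.0809 per kilobase). The sign also turned for genes near 0, in Rps27l (0.013 by library size, 0.046 by upper quartile, and -0.10 to 0.017 leaving out each library), Rps15a (0.016) and Rpl7l1 (0.000771, both by upper quartile). The cause of these turns was not tested, apart from the added counts. Reads aligned to several places are counted on no gene, and their origin was not analysed here.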
